A study of Mus musculus with 6 samples.

Results

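The genes described here are 48 components and direct targets of signalling by transforming growth factor beta (TGF-beta), the bone morphogenetic proteins (BMPs) and the activins, picked by gene symbol from the 21959 genes of the deposited table. All 48 symbols were found, and 42 had enough counts to be tested. Read counts came from 6 poly(A)-selected libraries of mouse cells labelled HL-1, a line derived from atrial muscle, wild type by label. All cells went through oxygen-glucose deprivation and reoxygenation (OGD/R), with 4 h of hypoxia without glucose and then 24 h of reoxygenation, and all were grown in medium with norepinephrine. One group of 3 libraries had OGD/R alone. In the other group of 3, cells were given phillyrin, a plant lignan glucoside, at 50 µg/mL for 8 h beforehand and for 16 h together with OGD/R. No vehicle control and no cells without OGD/R were analysed here, so an effect of any solvent cannot be told apart from that of phillyrin.

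Library totals ran from 14761317 to 22123648 counts, and the 48 genes together took between 0.449% and 0.466% of them. Mitochondrial genes held a share of 3.18% to 3.30% under OGD/R alone and of 3.49%, 3.59% and 4.27% with phillyrin, so the groups did not overlap, and phillyrin replicate 3, the shallowest library, stood highest. Without that library 11 members were higher and 11 lower, where 1792 of 11827 tested genes were higher and 1619 lower. The groups did not overlap in mitochondrial share in that fit either, and the part of this share in the results was not tested. Markers of the labelled cell type were close to absent: 11 of 12 atrial muscle genes were below 0.5 CPM (counts scaled to a common library total) in every library, and Myh6, Actn2 and Sln had no count at all. Of 8 skeletal myoblast markers 6 were tested, and 1 rose and 3 fell. Their summed levels were 1253 to 1275 CPM in OGD/R and 1188 to 1246 CPM with phillyrin. Fibroblast markers (8 genes, of which Lum and Tcf21 had no count) summed to 897 to 909 CPM and 770 to 792 CPM. Of these 4 were tested, with 2 lower and 0 higher. Over all 11658 tested genes, 16.0% were higher and 15.6% lower. The 6 endothelial markers summed to at most 1.35 CPM and the 6 macrophage markers to at most 4.31 CPM in any library. In such bulk RNA, fewer cells of a type and less RNA per cell cannot be told apart. The cells are called by their label below.

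Ligands of this family are secreted dimers that bring together type I and type II receptor kinases. TGF-beta and activin receptors phosphorylate SMAD2 and SMAD3, BMP receptors phosphorylate SMAD1, SMAD5 and SMAD9, and either set enters the nucleus with SMAD4. TGF-beta in its latent, inactive form is held in the matrix by latent TGF-beta binding proteins. Follistatin, gremlin, noggin and chordin hold ligands away from their receptors. The pathways are known in heart and skeletal muscle for fibrosis, for the control of muscle mass and for restraint of myoblast differentiation, the last partly through the Id proteins.

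With phillyrin, 11 of the 42 tested members were higher and 11 lower, 22 called in all (52.4%), where 31.7% of all 11658 tested genes were called, 16.0% higher and 15.6% lower (edgeR quasi-likelihood test, adjusted p under 0.05). Among genes with a mean of at least 10 CPM, a limit set after the values were seen, 21 of 34 members were called (61.8%) against 37.1% of all such genes. Members and further lists were chosen with earlier results of these data known. Their shares, set beside those of all genes, therefore describe the genes chosen and test nothing. The median log2 fold change of the tested members was 0.01, beside -0.01 over all tested genes. The median size of a change was 0.17 beside 0.14. The libraries of the groups did not overlap for 12 members that were higher and 9 that were lower, where 21.5% and 21.6% of all tested genes did so in each direction and 43.1% in either. With library size as the only scaling, 10 members were higher and 12 lower, against 11.3% and 21.1% of all genes, a split of 1313 genes higher and 2455 lower in place of 1871 and 1823. All 22 calls held their direction in all 13 alternative settings tried, and 17 passed in every one of them. With 3 libraries a group, an exact two-sided permutation test of a single gene cannot fall below p = 0.1. The calls therefore rest on the model that edgeR fits to the counts, which also pools information about spread over genes. No label describes the replicates as separate cultures, so the p-values speak only to variation among these libraries, possibly technical.

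**Figure D1:**
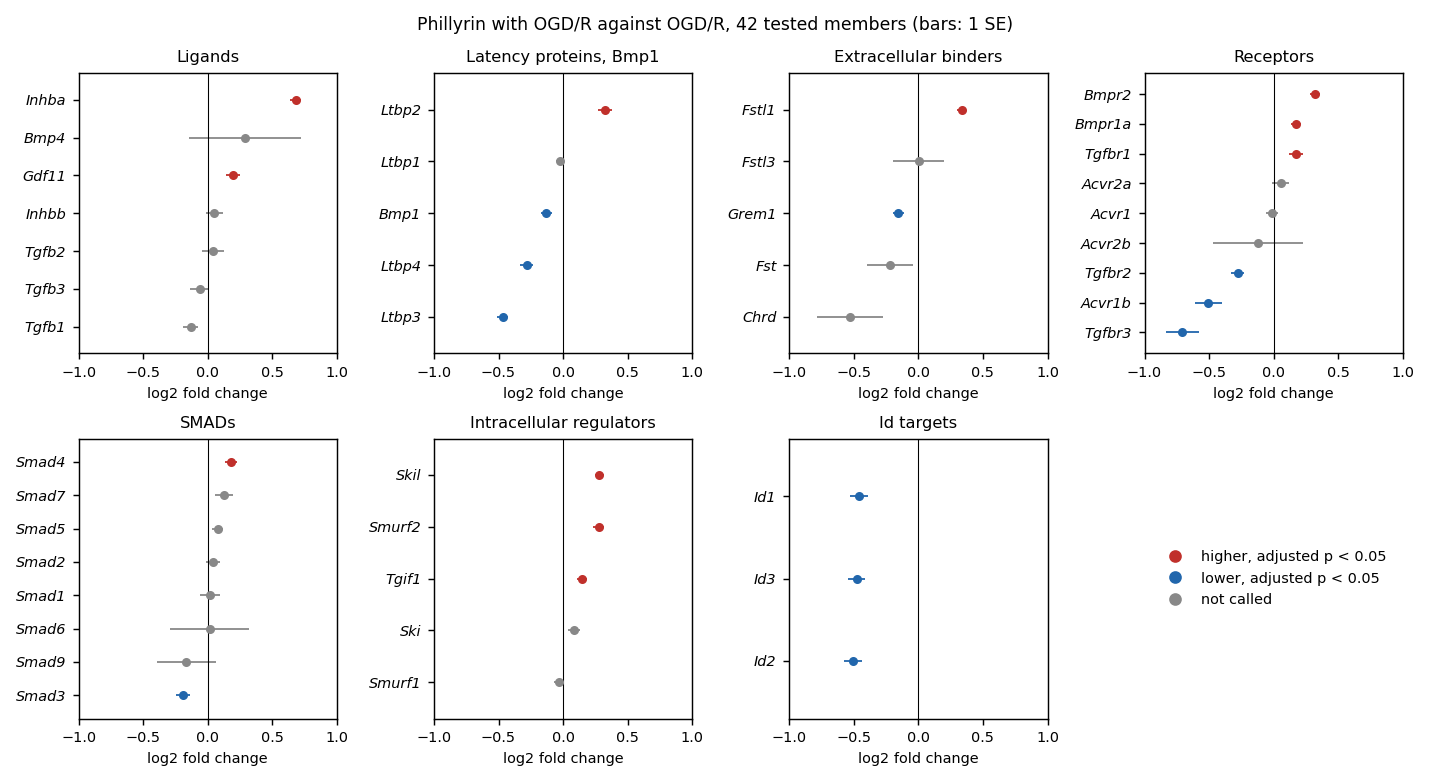
Log2 fold change of each of the 42 tested members, phillyrin with OGD/R minus OGD/R, by role (x axis, bars of 1 SE from the edgeR fit over 6 libraries; red higher, blue lower, grey not called). Inhba lies farthest to the right at 0.68 and Tgfbr3 farthest to the left at -0.71, and the 3 tested Id genes all lie left of 0.

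Levels can be set beside each other only per transcript length, for which the deposited FPKM (fragments per kilobase of transcript, scaled to library total) were used. In OGD/R, Inhba was the most abundant ligand transcript at 26.8 ± 1.93 FPKM (SD, n = 3, as for the levels that follow). Gdf11 at 15.1 ± 0.831 and Tgfb1 at 14.1 ± 0.766 FPKM had overlapping libraries, as did Inhbb and Tgfb3, and Tgfb2 at 3.63 ± 0.130 FPKM was lower than all of these. Bmp4, at 0.255 ± 0.0326 FPKM, was the only BMP ligand with enough counts for a test. Among receptors the order was Bmpr1a at 29.6 ± 0.712, Acvr1 at 25.5 ± 0.625, Bmpr2 at 14.5 ± 0.779 and Tgfbr2 at 12.9 ± 0.378 FPKM, with no overlap between neighbours, down to Acvr2b at 0.375 ± 0.0483 FPKM. Smad4 and Smad5 led the SMADs, at 28.8 ± 1.84 and 23.9 ± 0.920 FPKM. The extracellular binders Fstl1 and Grem1 stood above every other member, at 117 ± 0.717 and 80.6 ± 2.82 FPKM, whereas Fst, Fstl3 and Chrd were all under 1.62 FPKM in each OGD/R library.

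**Figure D2:**
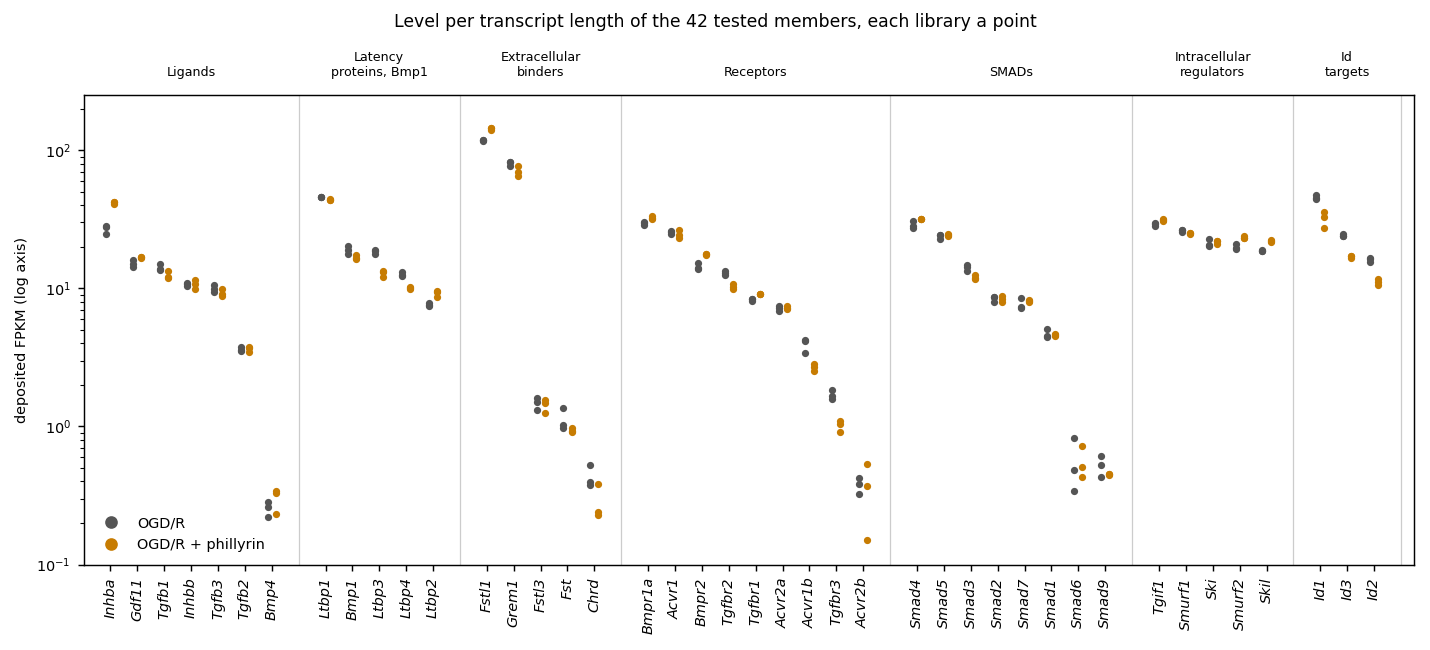
Deposited FPKM (log axis) of the 42 tested members in each of the 3 OGD/R (grey) and 3 phillyrin (orange) libraries, ordered within each role by the OGD/R mean. The extracellular binders fall into Fstl1 and Grem1 above 64 FPKM and the other 3 below 2 FPKM, and the Bmp4 points stay below 0.4 FPKM.

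Of the ligands, Inhba rose most and Gdf11 rose slightly, while the TGF-beta genes themselves gave no call. Inhba (ENSMUSG00000041324, chromosome 13, 16186436 to 16206206, build GRCm39 as for all gene positions here) encodes the beta A subunit that forms activin A. It was at 154, 177 and 174 CPM in the OGD/R libraries and 273, 262 and 275 CPM in the phillyrin libraries. Every phillyrin library was above every OGD/R library, and the rise was from 169 ± 12.5 to 270.2 ± 6.98 CPM (SD, n = 3 each; 0.68 ± 0.04 SE in log2 fold change, adjusted p = 2.95e-15 by edgeR). Gdf11, a ligand close to myostatin that uses activin receptors, stood at 57.3, 60.0 and 64.2 CPM in the OGD/R libraries and 68.4, 69.4 and 69.9 CPM in the phillyrin libraries, again without overlap (0.20 ± 0.06 SE in log2 fold change, adjusted p = 0.00641 by edgeR). With OGD/R replicate 1 dropped, Gdf11 no longer passed (adjusted p = 0.0584 by edgeR). Inhbb, which encodes the beta B subunit of activins and inhibins, was at 44.9 ± 1.38 and 46.5 ± 3.37 CPM (SD, n = 3 each), with a log2 fold change of 0.05 ± 0.06 (errors of log2 fold changes are SE throughout). The ratio of Inhba to Inhbb counts per length, which needs no scaling between libraries, was 2.37, 2.56 and 2.57 in OGD/R and 4.25, 3.53 and 3.89 with phillyrin.

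Tgfb1, the founding ligand of the family, was at 74.3, 67.3 and 69.2 CPM in the OGD/R libraries and 60.9, 68.5 and 62.5 CPM in the phillyrin libraries. The groups overlapped, and the difference missed the threshold (-0.13 ± 0.06 SE in log2 fold change, adjusted p = 0.0795 by edgeR), although it passed in edgeR with library size as the only scaling (adjusted p = 0.0213) and with phillyrin replicate 2 dropped (adjusted p = 0.0273). Tgfb2 and Tgfb3 had log2 fold changes of 0.04 ± 0.08 and -0.06 ± 0.07, and Tgfb3 overlaps Ttll5 on the other strand. Bmp4 had 70 counts in the 6 libraries together and a log2 fold change of 0.29 ± 0.43, an error too wide to show a change of that size. Mstn, the gene of myostatin, and Bmp7 had no count in any library, which allows at most 0.0269 CPM over all 111513800 counts. Bmp2 had 1 count and Bmp6 38 counts in all, and neither was tested.

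Of the 4 latent TGF-beta binding protein genes Ltbp3 and Ltbp4 fell, Ltbp2 rose, and Ltbp1, the most abundant of them at 45.8 ± 0.318 FPKM in OGD/R, differed by a log2 fold change of -0.02 ± 0.03. Ltbp1, Ltbp3 and Ltbp4 bind latent TGF-beta, whereas Ltbp2 is a related matrix protein that does not. Ltbp3 (ENSMUSG00000024940, chromosome 19, 5790932 to 5808560) was at 169, 166 and 159 CPM in the OGD/R libraries and 121, 122 and 113 CPM in the phillyrin libraries. The highest phillyrin library was well under the lowest OGD/R library (-0.47 ± 0.04 SE in log2 fold change, adjusted p = 3.68e-11 by edgeR).

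Ltbp4 was at 83.8, 78.1 and 79.5 CPM in the OGD/R libraries and 64.4, 67.3 and 66.8 CPM in the phillyrin libraries and fell without overlap (-0.28 ± 0.05 SE in log2 fold change, adjusted p = 6.16e-05 by edgeR). Ltbp2 (ENSMUSG00000002020, chromosome 12, 84829986 to 84923306) was at 60.3, 61.1 and 63.0 CPM in the OGD/R libraries and 71.7, 79.7 and 79.3 CPM in the phillyrin libraries, with all phillyrin libraries higher (0.32 ± 0.06 SE in log2 fold change, adjusted p = 1.58e-05 by edgeR). The ratio of Ltbp2 to Ltbp3 counts per length went from 0.396, 0.407 and 0.438 in the OGD/R libraries to 0.656, 0.722 and 0.775 in the phillyrin libraries. Bmp1 is no BMP but a protease that trims procollagen and other matrix proteins, and it was at 175, 165 and 155 CPM in the OGD/R libraries and 156, 146 and 150.2 CPM in the phillyrin libraries. Its groups overlapped, and its call (-0.13 ± 0.04 SE in log2 fold change, adjusted p = 0.0193 by edgeR) did not survive DESeq2 (adjusted p = 0.0550) or, in edgeR, the loss of OGD/R replicate 1 (adjusted p = 0.203), of OGD/R replicate 2 (adjusted p = 0.0664) or of phillyrin replicate 2 (adjusted p = 0.113). The summed fibroblast markers given above were lower in the phillyrin libraries too, mostly through Col1a2, and their part in the lower Ltbp3, Ltbp4 and Bmp1 was not tested.

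The promoters of Ltbp2 and Ltbp3 are shown because these related genes moved apart. Each run is the 250 bases before the annotated start in RefSeq, build GRCm38.p6, with Ltbp2 on the minus strand (chr12:84876492-84876741) and Ltbp3 on the plus strand (chr19:5740650-5740899), 5′ to 3′. Capitals mark the short SMAD-binding motif CAGAC, or GTCTG where it lies on the other strand.
Ltbp2: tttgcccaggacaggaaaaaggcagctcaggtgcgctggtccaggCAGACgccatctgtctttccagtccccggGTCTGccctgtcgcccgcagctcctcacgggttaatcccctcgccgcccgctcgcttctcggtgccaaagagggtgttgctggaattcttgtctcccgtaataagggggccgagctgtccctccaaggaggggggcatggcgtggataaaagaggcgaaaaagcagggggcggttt
Ltbp3: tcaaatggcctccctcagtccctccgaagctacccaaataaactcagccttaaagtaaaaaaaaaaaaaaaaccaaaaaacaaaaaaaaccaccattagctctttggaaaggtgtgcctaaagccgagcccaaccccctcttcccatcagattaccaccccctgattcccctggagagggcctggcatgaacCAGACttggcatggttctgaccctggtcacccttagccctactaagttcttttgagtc
Ltbp2 held the motif 205 and, on the other strand, 176 bases before the start and Ltbp3 held it 58 bases before it. CAGAC occurred on either strand in 42.2% of all 32851 windows of this length in the table. It occurred in 43.5% of the 46 windows that belong to members, so for this motif the members' share was near the background. These member windows cover 36 of the 48 genes. Some members were left out by their place in the genome, a filter that was not applied to the background windows. Others, Id1 among them, had no RefSeq window here.

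Among the extracellular binders, Fstl1 rose and Grem1 fell slightly. Fstl1 (ENSMUSG00000022816, chromosome 16, 37597235 to 37656876), a secreted follistatin-like glycoprotein, was at 563, 569.7 and 573 CPM in the OGD/R libraries and 722, 719 and 711 CPM in the phillyrin libraries. The OGD/R and phillyrin libraries each lay within a narrow band and did not overlap (0.33 ± 0.03 SE in log2 fold change, adjusted p = 1.54e-10 by edgeR). Grem1, the BMP antagonist gremlin, was at 315, 336 and 336 CPM in the OGD/R libraries and 321, 289 and 275 CPM in the phillyrin libraries. Phillyrin replicate 1 lay within the OGD/R range, while the other phillyrin libraries were below it (-0.16 ± 0.04 SE in log2 fold change, adjusted p = 0.00495 by edgeR). The ratio of Fstl1 to Grem1 counts per length was 1.51, 1.43 and 1.44 in OGD/R and 1.90, 2.10 and 2.18 with phillyrin.

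Follistatin, the main activin antagonist, was scarce: Fst was at 4.60, 4.44 and 6.21 CPM in the OGD/R libraries and 4.50, 4.20 and 4.38 CPM in the phillyrin libraries and gave no call (-0.22 ± 0.18 SE in log2 fold change, adjusted p = 0.363 by edgeR). Fstl3, a follistatin relative that also binds activins, had a log2 fold change of 0.00 ± 0.20. Chrd, the gene of chordin, which overlaps Thpo on the other strand, was at 2.43, 3.23 and 2.32 CPM in the OGD/R libraries and 1.52, 2.42 and 1.46 CPM in the phillyrin libraries, with overlapping groups (-0.53 ± 0.26 SE in log2 fold change, adjusted p = 0.117 by edgeR), and passed in edgeR only with phillyrin replicate 2 dropped (adjusted p = 0.0388). Nog, which encodes the BMP antagonist noggin, had 27 counts in all 6 libraries and was not tested.

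Of 9 receptor genes 3 rose and 3 fell (66.7% called, beside 31.7% of all tested genes). Tgfbr3 and Acvr1b had the largest changes of the 9. Tgfbr3 (ENSMUSG00000029287, chromosome 5, 107254436 to 107437495) encodes betaglycan, a co-receptor that presents TGF-beta2 and also binds inhibin. It was at 10.2, 11.8 and 10.7 CPM in the OGD/R libraries and 6.84, 6.08 and 7.30 CPM in the phillyrin libraries, with no overlap, a fall from 10.9 ± 0.791 to 6.74 ± 0.620 CPM (SD, n = 3 each; -0.71 ± 0.13 SE in log2 fold change, adjusted p = 3.82e-05 by edgeR). Acvr1b (ENSMUSG00000000532, chromosome 15, 101071948 to 101111565), the type I receptor of activins also called ALK4, was at 14.7, 18.1 and 18.5 CPM in the OGD/R libraries and 11.9, 12.6 and 11.4 CPM in the phillyrin libraries. All 3 phillyrin libraries were lower, although OGD/R replicate 1 stood apart from the other OGD/R libraries (-0.51 ± 0.11 SE in log2 fold change, adjusted p = 0.000253 by edgeR). Tgfbr2, the type II receptor of TGF-beta, was at 101, 107 and 104 CPM in the OGD/R libraries and 84.3, 89.6 and 83.0 CPM in the phillyrin libraries and fell without overlap (-0.28 ± 0.05 SE in log2 fold change, adjusted p = 2.14e-05 by edgeR).

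The receptors that rose were Bmpr2, Bmpr1a and Tgfbr1. Bmpr2 (ENSMUSG00000067336, chromosome 1, 59802559 to 59918173), the type II receptor of BMPs, was at 246, 250.5 and 273 CPM in the OGD/R libraries and 321, 316 and 325 CPM in the phillyrin libraries. Its libraries did not overlap (0.32 ± 0.04 SE in log2 fold change, adjusted p = 1.93e-08 by edgeR). Bmpr1a, a type I BMP receptor also called ALK3, rose from 185 ± 4.34 to 209 ± 7.25 CPM (SD, n = 3 each; 0.18 ± 0.04 SE in log2 fold change, adjusted p = 0.000570 by edgeR). Tgfbr1, the type I receptor of TGF-beta also called ALK5, rose from 53.3 ± 0.928 to 60.1 ± 0.577 CPM (0.17 ± 0.06 SE in log2 fold change, adjusted p = 0.0163 by edgeR), a call that edgeR did not make with library size as the only scaling (adjusted p = 0.0732) or with OGD/R replicate 3 dropped (adjusted p = 0.0771). Tgfbr1 and Tgfbr2 work as a pair, and their ratio in counts per length went from 0.668, 0.626 and 0.632 in OGD/R to 0.886, 0.839 and 0.917 with phillyrin. The ratio of Bmpr2 to Tgfbr2 went from 1.11, 1.06 and 1.20 to 1.73, 1.61 and 1.78. The type II activin receptors Acvr2a and Acvr2b and the type I receptor Acvr1 gave no call, with log2 fold changes of 0.05 ± 0.06, -0.12 ± 0.35 and -0.02 ± 0.05.

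**Figure D3:**
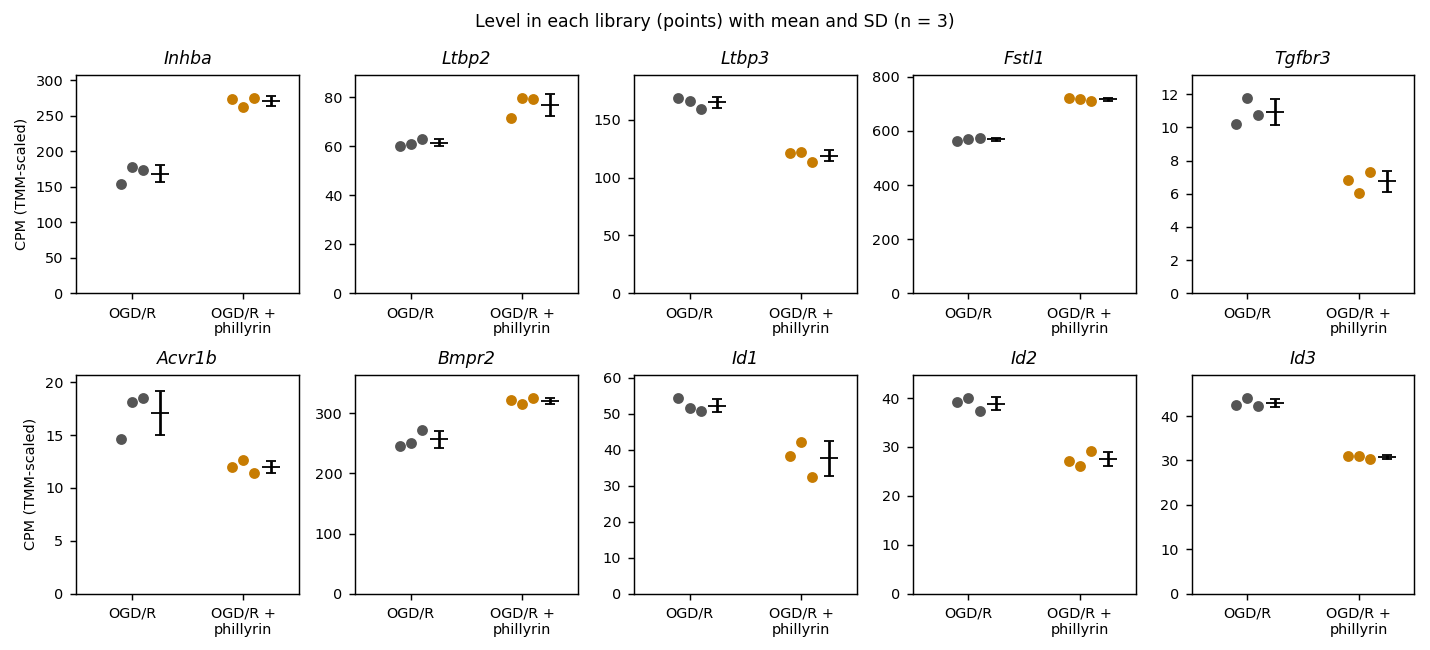
CPM scaled by TMM factors in each library for the 10 members that were called with a log2 fold change of at least 0.3 in size (points, 3 libraries a group; horizontal bar and whisker, mean and SD; axes start at 0). No panel shows an overlap between the groups, and Id1 has the widest spread among phillyrin libraries relative to its level.

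Of 8 SMAD genes 1 rose and 1 fell (25% called, beside 31.7% of all tested genes). Both changed by less than the called members' median change of 0.28. Smad4, the shared partner of both branches, was at 113, 100.1 and 104 CPM in the OGD/R libraries and 119, 118 and 121 CPM in the phillyrin libraries and rose without overlap (0.18 ± 0.05 SE in log2 fold change, adjusted p = 0.00284 by edgeR). Smad3, which carries the TGF-beta and activin signal, was at 77.9, 81.1 and 72.6 CPM in the OGD/R libraries and 65.8, 69.6 and 67.7 CPM in the phillyrin libraries and fell without overlap (-0.19 ± 0.05 SE in log2 fold change, adjusted p = 0.00680 by edgeR). Neither call stood in edgeR once OGD/R replicate 2 was dropped (adjusted p = 0.0515 for Smad4 and adjusted p = 0.0742 for Smad3). The ratio of Smad4 to Smad3 counts per length lay between 1.84 and 2.16 in OGD/R and between 2.54 and 2.71 with phillyrin.

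Smad2, the other SMAD of that branch, had a log2 fold change of 0.04 ± 0.05. In the BMP branch, Smad1, Smad5 and Smad9 had log2 fold changes of 0.02 ± 0.08, 0.08 ± 0.04 and -0.17 ± 0.23 and none was called, although the Smad5 libraries did not overlap (edgeR adjusted p = 0.150). Smad6 and Smad7, the inhibitory SMADs that these pathways induce as feedback, gave no call. Smad7 was at 32.2, 37.6 and 32.4 CPM in the OGD/R libraries and 36.5, 37.8 and 37.4 CPM in the phillyrin libraries (0.13 ± 0.07 SE in log2 fold change, adjusted p = 0.177 by edgeR). Smad6 had only 197 counts in all libraries and a log2 fold change of 0.02 ± 0.31.

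Inside the cell, 3 of 5 regulators rose and 0 fell (60% called, beside 31.7% of all tested genes). Skil (ENSMUSG00000027660, chromosome 3, 31149207 to 31176726), which encodes the SMAD repressor SnoN and is itself induced by TGF-beta, was at 178, 177 and 182 CPM in the OGD/R libraries and 218, 213 and 220.5 CPM in the phillyrin libraries. The phillyrin libraries were all higher (0.28 ± 0.04 SE in log2 fold change, adjusted p = 2.43e-07 by edgeR). Smurf2 (ENSMUSG00000018363, chromosome 11, 106710892 to 106811541), a ubiquitin ligase that targets SMADs and receptors, was at 117, 119.6 and 128 CPM in the OGD/R libraries and 145, 150.0 and 146 CPM in the phillyrin libraries, also without overlap (0.27 ± 0.04 SE in log2 fold change, adjusted p = 4.54e-06 by edgeR). Tgif1, a homeodomain repressor that binds SMAD2 and SMAD3, rose from 161 ± 3.69 to 178 ± 4.15 CPM (SD, n = 3 each; 0.14 ± 0.04 SE in log2 fold change, adjusted p = 0.00448 by edgeR). The paralogs Ski and Smurf1 had log2 fold changes of 0.08 ± 0.05 and -0.03 ± 0.04 and were not called.

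All 3 tested Id genes fell, by 27.4% for Id1, 29.5% for Id2 and 28.3% for Id3. Of all tested genes, 15.6% were called lower. Id proteins are helix-loop-helix factors without a DNA-binding region that tie up the partners of MyoD and related factors, and Id1, Id2 and Id3 are direct BMP targets in many cells. Id1 (ENSMUSG00000042745, chromosome 2, 152578171 to 152579330) was at 54.3, 51.5 and 50.9 CPM in the OGD/R libraries and 38.3, 42.1 and 32.4 CPM in the phillyrin libraries. Phillyrin replicate 3 was lowest, and all 3 phillyrin libraries were below the OGD/R range (-0.46 ± 0.07 SE in log2 fold change, adjusted p = 2.67e-06 by edgeR). Id2 (ENSMUSG00000020644, chromosome 12, 25143798 to 25147139) was at 39.1, 39.9 and 37.4 CPM in the OGD/R libraries and 27.2, 26.2 and 29.1 CPM in the phillyrin libraries, without overlap (-0.50 ± 0.07 SE in log2 fold change, adjusted p = 5.44e-07 by edgeR). Id3 (ENSMUSG00000007872, chromosome 4, 135870808 to 135873066) was at 42.4, 44.0 and 42.3 CPM in the OGD/R libraries and 30.9, 31.0 and 30.3 CPM in the phillyrin libraries, with the phillyrin libraries close together and well below (-0.48 ± 0.07 SE in log2 fold change, adjusted p = 4.02e-07 by edgeR). Over the 13 alternatives, the log2 fold changes of Id1, Id2 and Id3 stayed between -0.55 and -0.37, and all passed in each. Id4 had 17 counts in all libraries and was not tested.

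Myod1, whose product Id proteins counteract, was at 83.2 ± 2.18 and 97.2 ± 4.09 CPM (SD, n = 3 each), and it is the 1 skeletal myoblast marker that rose (0.23 ± 0.05 SE in log2 fold change, adjusted p = 0.000455 by edgeR). Myf5, Cdh15 and Chrna1 are the 3 that fell, and Myog, the differentiation factor, was below 1 CPM in every library. These markers are named here after their values were seen. The part of these marker changes in the lower Id genes was not tested.

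The promoters of Id2 and Id3 are shown because these genes fell together, again as the 250 bases before the RefSeq start in GRCm38.p6, 5′ to 3′. Id2 lies on the minus strand (chr12:25096093-25096342) and Id3 on the plus strand (chr4:136143572-136143821). Id1, which fell too, had no RefSeq window here. Capitals mark CAGAC or its reverse complement GTCTG and, in Id2, the GC-rich SMAD-binding motif GGCGCC.
Id2: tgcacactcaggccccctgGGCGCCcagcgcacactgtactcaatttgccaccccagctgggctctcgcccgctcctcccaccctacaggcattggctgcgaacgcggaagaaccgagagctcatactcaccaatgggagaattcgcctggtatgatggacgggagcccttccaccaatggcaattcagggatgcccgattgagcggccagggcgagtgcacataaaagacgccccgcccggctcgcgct
Id3: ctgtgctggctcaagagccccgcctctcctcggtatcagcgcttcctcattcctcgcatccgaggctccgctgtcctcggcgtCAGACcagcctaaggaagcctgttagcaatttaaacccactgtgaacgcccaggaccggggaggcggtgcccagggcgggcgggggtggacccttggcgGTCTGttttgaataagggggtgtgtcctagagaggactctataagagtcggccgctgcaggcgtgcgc
Id2 held GGCGCC 231 bases before its start and no CAGAC, and Id3 held CAGAC 167 and, on the other strand, 68 bases before its start and no GGCGCC. That GC-rich motif occurred in 28.3% of the 46 member windows and in 9.59% of all windows. A gene can have several windows: the 13 member windows with the motif belong to 12 genes, as overlapping windows of Ltbp4 share a site. Member windows were also richer in G and C, with a median of 68.0% against 52.4%. The parts of base composition and of the left-out members in the difference in GGCGCC shares were not tested. The E-box CACGTG, searched alongside, was in 8.70% of member windows and 6.02% of all. In no member window did a CAGAC match share bases with a GGCGCC match.

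Genes known to respond to TGF-beta in other cells were read from a list of 28, of which 24 were tested. Of these 9 rose and 6 fell (62.5% called, beside 31.7% of all tested genes), with a median log2 fold change of 0.02. Ccn2, a matricellular growth factor also called CTGF, was at 88.4, 88.5 and 83.3 CPM in the OGD/R libraries and 139.7, 143 and 153 CPM in the phillyrin libraries (0.74 ± 0.05 SE in log2 fold change, adjusted p = 1.74e-15 by edgeR). Pmepa1, a TGF-beta-induced membrane protein that restrains SMAD signalling, rose from 215 ± 0.372 to 313 ± 10.4 CPM (SD, n = 3 each; 0.54 ± 0.04 SE in log2 fold change, adjusted p = 1.39e-14 by edgeR). Acta2, smooth muscle actin, rose from 392 ± 12.4 to 579 ± 29.5 CPM (0.56 ± 0.04 SE in log2 fold change, adjusted p = 6.32e-15 by edgeR), and Adam12, a metalloprotease of fusing myoblasts, from 13.0 ± 2.57 to 19.7 ± 0.231 CPM (0.59 ± 0.11 SE in log2 fold change, adjusted p = 4.43e-05 by edgeR).

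The periostin gene Postn had the largest fold on the list, at a low level of 3.11 ± 0.0981 and 10.2 ± 0.483 CPM (SD, n = 3 each; 1.70 ± 0.15 SE in log2 fold change, adjusted p = 2.18e-11 by edgeR). Thbs1, whose product thrombospondin can release TGF-beta from its latent form, was at 494, 481 and 479 CPM in the OGD/R libraries and 355, 371 and 375 CPM in the phillyrin libraries and fell (-0.40 ± 0.03 SE in log2 fold change, adjusted p = 9.13e-12 by edgeR). The 4 other genes that rose had log2 fold changes between 0.24 and 0.33, and the other 5 that fell, collagen genes among them, between -0.34 and -0.10. Tgfbi had too few counts for a test, at no more than 0.421 CPM in any library. The list does not give the direction in which each gene responds to TGF-beta. Its genes went both ways, and no test was made of the list as a whole.

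**Figure D4:**
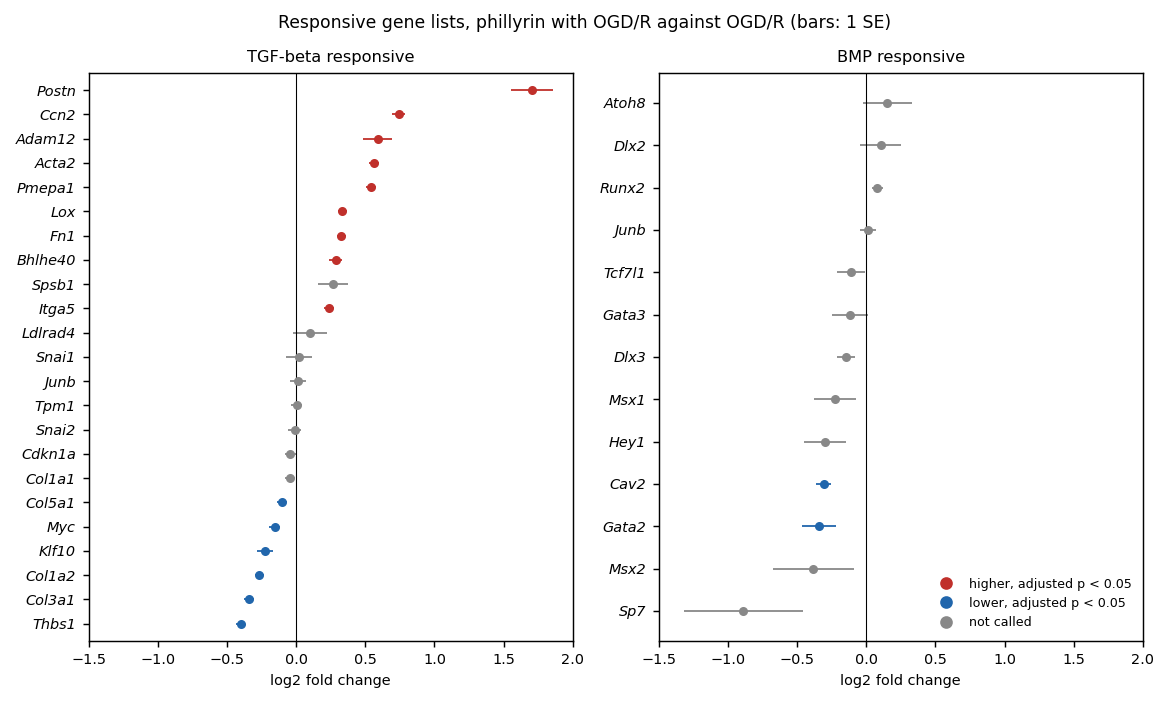
Log2 fold change (x axis, bars of 1 SE) of tested genes on the lists of TGF-beta responsive and BMP responsive genes, phillyrin with OGD/R minus OGD/R. On the left, 9 genes are called higher (red) and 6 lower (blue), and on the right 0 are called higher and 2 lower, the rest being grey.

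Of 18 genes known to respond to BMPs, leaving out the Id genes, 13 were tested, 0 rose and 2 fell. That is 15.4% called beside 31.7% of all tested genes, with a median log2 fold change of -0.15. Some uncalled genes were scarce, with wide errors, such as Sp7 at 0.953 ± 0.268 CPM in OGD/R (SD, n = 3; log2 fold change -0.89 ± 0.43). Others were not, such as Runx2 at 151 ± 3.92 CPM in OGD/R (log2 fold change 0.08 ± 0.04). The part of low counts in the share of 15.4% was not tested. Cav2, a caveolin gene, was at 80.5, 84.5 and 88.3 CPM in the OGD/R libraries and 68.0, 69.3 and 67.3 CPM in the phillyrin libraries and fell without overlap (-0.31 ± 0.05 SE in log2 fold change, adjusted p = 1.50e-05 by edgeR). Gata2, a transcription factor, was at 11.1, 9.84 and 10.6 CPM in the OGD/R libraries and 9.59, 7.58 and 7.72 CPM in the phillyrin libraries (-0.34 ± 0.13 SE in log2 fold change, adjusted p = 0.0333 by edgeR), a call that DESeq2 did not make (adjusted p = 0.0751). Nor did edgeR make it with OGD/R replicate 1 (adjusted p = 0.118), OGD/R replicate 3 (adjusted p = 0.0879), phillyrin replicate 2 (adjusted p = 0.162) or phillyrin replicate 3 (adjusted p = 0.0970) dropped. With any of those 4 libraries dropped, 1 gene of the list fell, and with OGD/R replicate 2 dropped, 3 fell. Bambi, a decoy receptor that BMP and TGF-beta induce, was at no more than 0.627 CPM in any library and was not tested.

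On a list of 50 further components of the pathways, 27 were tested, 4 rose and 2 fell (22.2% called, beside 31.7% of all tested genes). Fbn1, the fibrillin to which latent TGF-beta binding proteins attach, rose from 453 ± 6.25 to 537 ± 11.8 CPM (SD, n = 3 each; 0.25 ± 0.03 SE in log2 fold change, adjusted p = 3.09e-07 by edgeR). Furin, the convertase that cleaves TGF-beta and activin precursors, rose from 123 ± 1.06 to 135 ± 1.75 CPM (0.14 ± 0.04 SE in log2 fold change, adjusted p = 0.00708 by edgeR), which edgeR did not call with library size as the only scaling (adjusted p = 0.0548). Hipk2, a kinase that acts with SMAD repressors, rose by 0.18 ± 0.05 in log2 units, which edgeR did not call with OGD/R replicate 2 dropped (adjusted p = 0.0713). Ppm1a, a phosphatase of SMADs, rose by 0.10 ± 0.04 (edgeR adjusted p = 0.0448), a call missed in 7 of the 13 alternatives, where the highest value was adjusted p = 0.266.

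Tgfb1i1, the focal adhesion adaptor Hic-5, fell from 94.6 ± 2.40 to 78.9 ± 0.941 CPM (SD, n = 3 each; -0.26 ± 0.05 SE in log2 fold change, adjusted p = 6.47e-05 by edgeR). Nedd4l, a ubiquitin ligase of activated SMAD2 and SMAD3, fell from 79.9 ± 5.17 to 69.1 ± 2.55 CPM (-0.21 ± 0.05 SE in log2 fold change, adjusted p = 0.00315 by edgeR), which edgeR did not call with OGD/R replicate 3 dropped (adjusted p = 0.0530). Gdf15, a stress-induced member of the ligand family, was at 45.6, 46.8 and 48 CPM in the OGD/R libraries and 42.5, 48.3 and 40.0 CPM in the phillyrin libraries and gave no call (-0.09 ± 0.07 SE in log2 fold change, adjusted p = 0.294 by edgeR). Without OGD/R replicate 2, 2 genes of this list rose, and without OGD/R replicate 3, 1 fell.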

How the data were processed

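Poly(A) RNA was sequenced in 6 libraries as 150-base paired reads. Build GRCm39 was used, and the programs named are HISAT2 2.2.1, Trimmomatic 0.39, DESeq2 1.34.0 and featureCounts 2.0.3, all per the submitters' processing notes. The strand setting of the counting is not given in the sources used here. The authors deposited a table of raw read counts per gene, beside FPKM. The deposited FPKM equal the counts divided by gene length and library total to within a relative 2.43e-07, so they carry no TMM scaling.

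The counts were tested with edgeR 4.0.16 in R 4.3.3 (quasi-likelihood, robust, TMM factors, genes kept by filterByExpr), over all 11658 genes that passed the count filter, with Benjamini-Hochberg adjustment and a threshold of 0.05. CPM are on TMM-scaled library sizes. DESeq2 1.42.0, limma 3.58.1 (voom), other scalings and filters, a replicate block and each library left out were alternatives. The script was tested on simulated data. Members and lists were chosen with earlier results of these data known. The rule for named genes was all 48 members and, of each further list, the called genes up to the 6 of largest change, plus Ccn2, Tgfbi, Pmepa1, Bambi, Gdf15 and an item that is not reported here. Values per library were set for called members with a log2 fold change of at least 0.3 in size. Those of other genes, and the pairs in ratios, were chosen after their values were seen. A floor of 3 counts is 0.136 CPM in the deepest library and 0.203 CPM in the shallowest, for counting error only.

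Same-numbered libraries of the groups did not deviate together (correlations of 0.00278, 0.00561 and 0.00322, all under 0.1), so the numbers were not taken as pairs. Reads from overlapping genes on opposite strands may not be told apart: 17 members overlap such a gene in GENCODE M21, of which 6 were called (Bmpr1a, Inhba, Ltbp2, Ltbp3, Smad4 and Tgfbr3).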

Additional observations from a re-analysis of the deposited data

How the results depend on the processing

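Over the 13 alternatives, 10 to 11 members were higher and 9 to 12 lower, and 17 of the 22 called members passed in each. No called member changed sign, but 6 uncalled ones did. With library size as the only scaling, log2 fold changes turned to -0.00187 for Tgfb2, -0.0399 for Fstl3, -0.0260 for Smad1 and -0.0280 for Smad6. With 1 library left out at a time, they ran from -0.0756 to 0.0798 for Fstl3, -0.0673 to 0.0340 for Acvr1, -0.539 to 0.312 for Acvr2b, -0.0190 to 0.0821 for Smad1 and -0.227 to 0.442 for Smad6. With library size as the only scaling, 1 ligand was lower (0 in the report) and 2 of the other components were higher (4 in the report). With DESeq2, 1 BMP responsive gene was lower (2 in the report). Leaving out 1 library at a time gave 1 to 2 ligands higher and 0 to 1 lower, 1 to 2 binders lower, 0 to 1 SMAD genes higher and 0 to 1 lower, 2 to 4 other components higher and 1 to 3 lower, and 1 to 3 BMP responsive genes lower. Over the same fits 1434 to 1899 of all genes were higher and 1412 to 1668 lower. With the replicate number as a block, 11 members were higher and 11 lower and 1867 and 1842 of all genes. Each library correlated best with its own number, but these correlations were at most 0.00561, far under the limit of 0.1, and show no pairing. The cause of these shifts was not tested. Bmp4, Acvr2b, Smad6, Smad9, Fst, Fstl3 and Chrd had low counts and wide errors, and the part of depth in these errors was not tested.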
